A study of Mus musculus with 10 samples.

Results

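A set of 10 genes of the endoplasmic reticulum (ER) stress response was followed in the aging gastrocnemius muscle of the mouse. The genes were Hspa5, Hsp90b1, Pdia3, Pdia4, Calr, Xbp1, Atf4, Atf6, Ddit3 and Trib3, chosen by symbol as 10 of the 37947 genes in the RNA-Seq table. The table lists each transcript separately, and each gene is represented by its most abundant transcript, judged by the mean of the 10 values. The 10 genes had 34 transcripts, of which 31 were above 0 in at least 1 library, and 9 of the 10 genes were expressed highly enough to be tested.

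The libraries came from gastrocnemius muscle of male C57BL/6 mice with no transgene or treatment, 5 young (6 months) and 5 aged (24 months), and each library was made from a single mouse. Values are log2 FPKM, that is, log2 of the fragments of a transcript scaled to its length and to the mapped fragments of the library, so levels can be compared between genes per length. An FPKM of 1 or less is listed as 0. The muscle is a whole tissue, and fewer cells of a type and less RNA per cell cannot be told apart in it.

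Proteins of the secretory pathway are folded in the ER lumen by chaperones and by enzymes that form disulfide bonds. When unfolded proteins accumulate there, the unfolded protein response starts from membrane sensors. IRE1 (Ern1) splices the Xbp1 mRNA, ATF6 is cut to release a transcription factor, and PERK (Eif2ak3) phosphorylates eIF2, which lowers general translation but favors translation of ATF4. ATF4 in turn induces CHOP (Ddit3) and TRIB3. In skeletal muscle the ER is specialized as the sarcoplasmic reticulum, where calreticulin and other calcium-binding chaperones reside next to the calcium pumps.

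The genes are first given together. Hspa5, Hsp90b1 and Xbp1 were higher in every aged library than in every young library, by 0.60 to 0.71 on the log2 scale, whereas Atf4 and Ddit3 overlapped between the ages and Trib3 was listed at 0 in all libraries. Of the 9 genes tested, 8 had a higher mean in aged muscle, with a median difference of 0.30, beside 61.4% of all 10161 genes tested and a median of 0.07 over them. An unadjusted limma p under 0.05 was met by 3 of the 9 genes in the higher direction, a share met by 6.05% of all genes, and by 0 in the lower direction, met by 0.876% of all genes. Complete separation of the ages was also found for 3, beside 2.08% of all genes with every aged library higher and 0.344% with every aged library lower. None of the 10 genes passed limma's adjusted p of 0.05, which was passed by 1 of the 10161 genes (0.00984%), and over all transcripts fitted by 3 of 38059. The differences below are therefore given with unadjusted p, and they were not adjusted over the 9 genes.

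**Figure D1:**
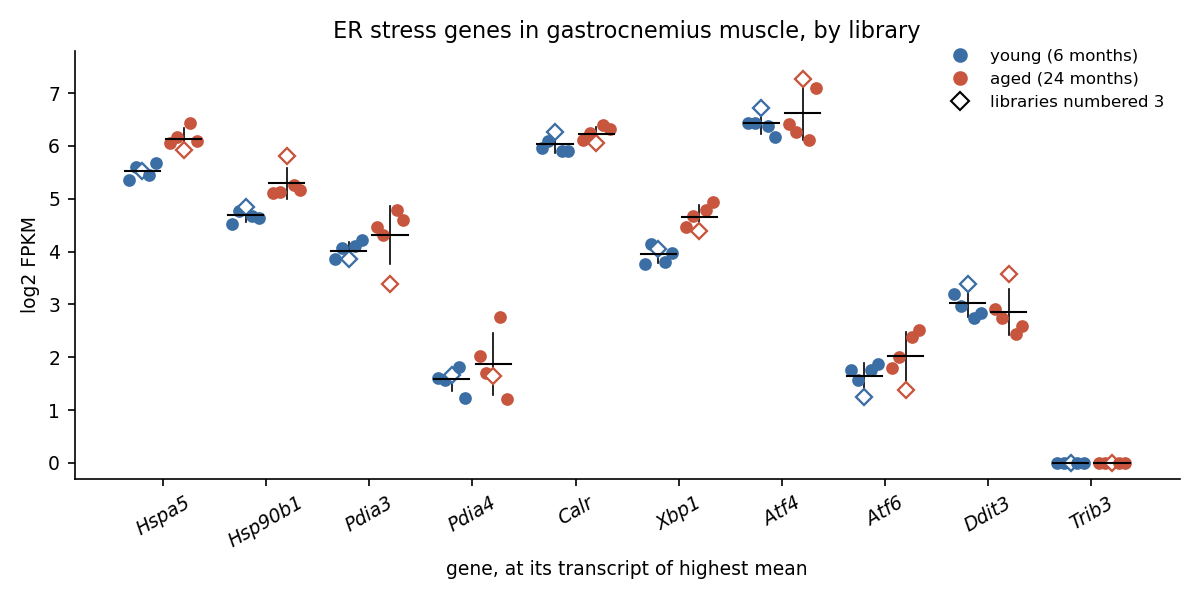
Level of each of the 10 genes in each library. The vertical axis is log2 FPKM, circles are libraries, open diamonds are the libraries numbered 3, and horizontal and vertical lines give the mean and SD of 5 libraries. The aged libraries sit above all young libraries for Hspa5, Hsp90b1 and Xbp1, the ages overlap for the other genes above 0, and Trib3 is at 0 throughout.

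Sequencing depth, recovered from the steps between the deposited values, was 19886388 to 34554381 reads per library. Aged library 3, and less so young library 3, stood apart from the rest by low values for transcripts that end far from the 3′ end of their gene. Results are therefore also given without both libraries numbered 3. Without them, the median difference over all genes was 0.14, an unadjusted limma p under 0.05 was met by 13.5% of genes in the higher and 1.38% in the lower direction, and 9.92% were completely separated with aged higher and 1.05% with aged lower. The tissue label was checked with 13 skeletal muscle genes, all of which were tested with none past limma's unadjusted p, and their summed FPKM was 1.41e+05 to 1.76e+05 in young and 1.32e+05 to 1.68e+05 in aged libraries. Only 2 of the 13 (15.4%) had a higher mean in aged muscle, beside 61.4% of all genes. Without both libraries numbered 3, Myh4 alone passed, at -0.32 with an unadjusted limma p of 0.0266 and complete separation.

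Among the lumenal chaperones, Hspa5 (BiP, the HSP70 chaperone of the ER, chromosome 2, 34772090 to 34776529 in GRCm38) was examined first. In young libraries 1 to 5 its log2 FPKM was 5.35, 5.60, 5.52, 5.44 and 5.68, and in aged libraries 1 to 5 it was 6.06, 6.17, 5.92, 6.44 and 6.10. The lowest aged library was above the highest young library. The mean went from 5.52 ± 0.13 to 6.14 ± 0.20 (SD, n = 5 per age). The difference was 0.62 (SE 0.15), a 1.54-fold higher FPKM. The exact two-sided permutation p was 0.00794, the smallest that 5 libraries against 5 can give, and limma gave an unadjusted p of 0.00167 and an adjusted p of 0.618. Between 2115 and 5858 reads stood behind each value. Without both libraries numbered 3 the difference was 0.68.

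Hsp90b1 (GRP94, the HSP90 chaperone of the ER, chromosome 10, 86690841 to 86705444) had log2 FPKM values of 4.52, 4.76, 4.85, 4.67 and 4.64 in young libraries 1 to 5 and 5.11, 5.12, 5.80, 5.25 and 5.17 in aged libraries 1 to 5. The ages did not overlap, and aged library 3 stood above the rest of its group. The mean went from 4.69 ± 0.12 to 5.29 ± 0.29 (SD, n = 5 per age). Its difference of 0.60 (SE 0.17), or 1.52-fold, had an exact two-sided permutation p of 0.00794, an unadjusted limma p of 0.00495 and an adjusted limma p of 0.811. Leaving out both libraries numbered 3 gave 0.52 with a smaller SE of 0.10, and these 4 aged libraries were still above the 4 young. The exons of Hsp90b1 share 415 of their 4032 bases with an annotated pseudogene on the opposite strand, and TruSeq RNA kits of the type named in the methods do not mark the strand.

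Calr (calreticulin, a calcium-binding lectin chaperone, chromosome 8, 84842088 to 84846931) was represented by Calr-004, a transcript of 943 bases that ends 746 exonic bases before the 3′ end of the gene. It read 5.96, 6.10, 6.26, 5.91 and 5.90 on the log2 FPKM scale in young libraries 1 to 5 and 6.12, 6.24, 6.06, 6.39 and 6.32 in aged libraries 1 to 5. The groups overlapped through young library 3 and aged library 3. The difference was 0.20 (SE 0.14), with an unadjusted limma p of 0.188 and an exact two-sided permutation p of 0.0714. The longest transcript, Calr-001, gave 0.26 (SE 0.14) and reached 0.0397 in the exact two-sided permutation test, with limma's unadjusted p at 0.0869. Without both libraries numbered 3, Calr-004 differed by 0.30 with no overlap. Calr-001 then differed by 0.29, with an unadjusted limma p of 0.0317, and was not completely separated by age.

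The promoters of these 3 chaperones share a sequence, the ER stress element. It is named for the response to which the chosen genes belong, so its presence is a description and not an independent result. The ER stress element, bound by ATF6 with the factor NF-Y as background, was searched on both strands as CCAAT, any 9 bases, then CCACG, in the RefSeq windows of GRCm38.p6 from 250 bases before to 50 bases after each start. It was present for 3 of the 9 genes with a window, Hspa5, Hsp90b1 and Calr, and for 0.137% of the 27025 genes with a RefSeq window. The 250 bases before each start are shown because they hold these copies, printed 5′ to 3′ on the strand of the gene, with each element in capitals. They lie at chr2:34771840-34772089 on the plus strand, chr10:86705445-86705694 on the minus strand and chr8:84846932-84847181 on the minus strand.
Hspa5: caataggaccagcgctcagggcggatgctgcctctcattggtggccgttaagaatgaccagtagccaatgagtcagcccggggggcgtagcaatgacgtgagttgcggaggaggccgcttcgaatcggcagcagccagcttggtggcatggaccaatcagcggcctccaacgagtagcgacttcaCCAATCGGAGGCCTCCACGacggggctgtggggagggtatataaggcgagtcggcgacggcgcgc
Hsp90b1: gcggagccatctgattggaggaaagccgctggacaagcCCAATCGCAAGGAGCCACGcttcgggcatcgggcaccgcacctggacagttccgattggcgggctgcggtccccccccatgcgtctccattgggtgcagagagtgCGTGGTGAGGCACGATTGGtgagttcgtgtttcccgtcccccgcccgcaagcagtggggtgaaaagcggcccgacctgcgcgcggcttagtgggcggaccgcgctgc
Calr: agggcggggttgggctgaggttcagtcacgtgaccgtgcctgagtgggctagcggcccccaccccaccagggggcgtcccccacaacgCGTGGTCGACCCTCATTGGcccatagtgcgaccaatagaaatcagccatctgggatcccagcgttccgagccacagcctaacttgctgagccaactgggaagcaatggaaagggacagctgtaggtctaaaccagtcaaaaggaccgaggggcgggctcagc

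The Hspa5 element read on the strand of the gene and began 65 bases before the start. Hsp90b1 had 2 copies, on the strand of the gene from 212 bases and on the opposite strand from 107 bases before the start, and the single copy of Calr was on the opposite strand from 162 bases before the start. Allowing the last G to differ added Pdia3 and Pdia4 to the list, so that 5 of the 9 genes matched beside 0.429% of all genes. Xbp1, Atf4, Ddit3 and Trib3 did not have these letters in their windows, and the table held no window for Atf6. The XBP1-type element TGACGTGG was in 0 of the 9 windows and in 0.714% of all genes. A match is a description of the letters and not of binding.

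Of the 37 genes with the ER stress element in their window, 24 were found by symbol in the RNA-Seq table, and 10 of these were expressed highly enough to be tested. All 10 had a higher mean in aged muscle, beside 61.4% of all genes, with a median difference of 0.29. The 7 that were not among the chosen genes, Acacb, Canx, Creld2, Dnajc3, Hnrnpa3, Pdia6 and Syvn1, had a median of 0.26. Canx, Creld2, Dnajc3, Pdia6 and Syvn1 also belong to the pathway lists described below, so they are not a separate set. Acacb (0.04) and Hnrnpa3 (0.32) do not. Pdia6 was the single gene of the 7 with an unadjusted limma p under 0.05, beside 6.05% of all genes. Complete separation by age was seen for 0 of the 7, beside 2.08% of all genes, and without both libraries numbered 3 for 2 of the 7 (Canx and Hnrnpa3), beside 9.92%. The motif was looked for after the differences were known, so these counts are a description.

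Of the disulfide isomerases, Pdia3 (ERp57, which works with calreticulin and calnexin on glycoproteins, chromosome 2, 121413902 to 121438687) was represented by Pdia3-004, a transcript of 722 bases that ends 1478 exonic bases before the 3′ end of the gene. Its log2 FPKM was 3.85, 4.06, 3.85, 4.10 and 4.21 in young libraries 1 to 5 and 4.46, 4.32, 3.39, 4.79 and 4.60 in aged libraries 1 to 5. Aged library 3 was the lowest of all 10, and the other aged libraries were above all young libraries. With all libraries the difference was 0.30 (SE 0.25), with an exact two-sided permutation p of 0.262. Omitting both libraries numbered 3 gave 0.49 (SE 0.14), with a limma p of 0.00638 before and 0.254 after adjustment.

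The longest Pdia3 transcript, Pdia3-001 with 2770 bases, reaches the 3′ end and did not have this gap. It read 3.30, 3.60, 3.66, 3.64 and 3.55 in young libraries 1 to 5 and 4.11, 3.86, 4.52, 4.20 and 4.10 in aged libraries 1 to 5, on the log2 FPKM scale. All aged libraries were above all young libraries. The mean of Pdia3-001 went from 3.55 ± 0.15 to 4.16 ± 0.24 (SD, n = 5 per age), a difference of 0.61 (SE 0.16) with an exact two-sided permutation p of 0.00794 and limma p of 0.00307 before and 0.704 after adjustment. This transcript was taken up after its values were seen, and the transcript named by the rule is the one counted.

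Pdia4 (ERp72, a lumenal disulfide isomerase, chromosome 6, 47796141 to 47813512) was among the least abundant of the genes above 0. Its log2 FPKM was 1.61, 1.57, 1.66, 1.82 and 1.23 in young libraries 1 to 5 and 2.02, 1.71, 1.64, 2.77 and 1.21 in aged libraries 1 to 5. The ages overlapped, with aged libraries 1 and 4 above the young range and library 5 the lowest in both ages. The difference of 0.29 (SE 0.27) had an exact two-sided permutation p of 0.373 and was 0.06 to 0.45 when single libraries were left out.

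Among the transcription factors, Xbp1 (the factor activated by IRE1, chromosome 11, 5520641 to 5525993) had the largest difference of the 9 genes tested. It read 3.77, 4.14, 4.04, 3.80 and 3.97 on the log2 FPKM scale in young libraries 1 to 5 and 4.47, 4.67, 4.38, 4.79 and 4.94 in aged libraries 1 to 5. The ages did not overlap, and aged library 3 was the lowest of the aged group. The mean went from 3.94 ± 0.15 to 4.65 ± 0.23 (SD, n = 5 per age), and the difference was 0.71 (SE 0.16), or 1.63-fold. The exact two-sided permutation p was 0.00794 and limma gave 0.0011 before and 0.523 after adjustment. Behind the values stood 594 to 1567 reads. The difference was 0.80 without both libraries numbered 3. The values give the amount of Xbp1 transcript, and the table does not separate the form spliced by IRE1 from the unspliced form.

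Atf6 (the membrane-bound sensor that becomes a transcription factor, chromosome 1, 170704457 to 170868585) was about as abundant as Pdia4. Its log2 FPKM was 1.76, 1.57, 1.24, 1.76 and 1.87 in young libraries 1 to 5 and 1.80, 2.01, 1.37, 2.39 and 2.51 in aged libraries 1 to 5. The ages overlapped, and library 3 was the lowest in both. The difference was 0.38 (SE 0.24), with an exact two-sided permutation p of 0.151 and an unadjusted limma p of 0.141. With libraries numbered 3 left out, it was 0.44, with an unadjusted limma p of 0.0314 and an exact two-sided permutation p of 0.0571, and it was 0.25 to 0.54 when single libraries were left out, with a limma p of 0.0181 without aged 3. The aged library was higher in 5 of 5 pairs with the same number, by 0.04 to 0.64, and with the replicate number as a block limma's unadjusted p was 0.0445 and its adjusted p 0.603. In that blocked comparison 4 of the 9 genes had an unadjusted p under 0.05 in the higher direction, beside 9.5% of all genes. The transcript of 7463 bases is the longest of those that stand for the 10 genes, and aged library 3 lay 0.81 below the mean of the other aged libraries.

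Atf4 (the factor translated under eIF2 phosphorylation, chromosome 15, 80255184 to 80257545) had the highest level of the 10 genes, with a mean of 6.53 over the 10 libraries. It read 6.44, 6.43, 6.72, 6.38 and 6.16 in young libraries 1 to 5 and 6.41, 6.26, 7.26, 6.11 and 7.10 in aged libraries 1 to 5, on the log2 FPKM scale. Aged libraries 3 and 5 were above all young libraries, while aged libraries 1, 2 and 4 lay within or below the young range. The difference of 0.20 (SE 0.25) had an exact two-sided permutation p of 0.429, and the aged library was higher in 2 of 5 pairs with the same number. It was 0.05 without aged 3, 0.08 without aged 5, 0.33 without aged 4 and 0.12 without both libraries numbered 3. Since ATF4 is regulated at translation, these values do not measure the protein.

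Ddit3 (CHOP, the factor linked to cell death in prolonged ER stress, chromosome 10, 127290793 to 127296291) was the single gene of the 9 with a lower mean in aged muscle. Its log2 FPKM was 3.20, 2.96, 3.39, 2.74 and 2.83 in young libraries 1 to 5 and 2.92, 2.75, 3.57, 2.44 and 2.59 in aged libraries 1 to 5. The ages overlapped, and library 3 was the highest in both. The difference was -0.17 (SE 0.23), with an exact two-sided permutation p of 0.46. The aged library was lower in all pairs with the same number except number 3. Only 108 to 336 reads stood behind a value, and 68 of the 1713 exonic bases are shared with Mars on the opposite strand. Leaving out both libraries numbered 3 gave -0.26 with an unadjusted limma p of 0.116. With the replicate block on the same libraries, limma gave 0.0495 before and 0.387 after adjustment.

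Trib3 (a pseudokinase induced by ATF4 and CHOP, chromosome 2, 152337425 to 152344060) was listed at 0 in all 10 libraries for each of its 3 transcripts and was not tested. On its reference transcript of 2026 bases an FPKM of 1 stands for 40.3 to 70 reads, depending on the library, and lower levels were not detectable here.

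In young muscle the order of the mean levels at these transcripts was Atf4 (6.43), Calr (6.03), Hspa5 (5.52), Hsp90b1 (4.69), Pdia3 (4.01), Xbp1 (3.94), Ddit3 (3.02), Atf6 (1.64) and Pdia4 (1.58). Pdia3 and Xbp1, and Atf6 and Pdia4, differed there by less than the larger SD of the pair, and the other neighbors by more. In aged muscle the order was the same except that Xbp1 (4.65) stood before Pdia3 (4.31). The aged neighbors Atf4 (6.63) and Calr (6.23), Calr and Hspa5 (6.14), Xbp1 and Pdia3, and Atf6 (2.02) and Pdia4 (1.87) differed by less than the larger SD of the pair.

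**Figure D2:**
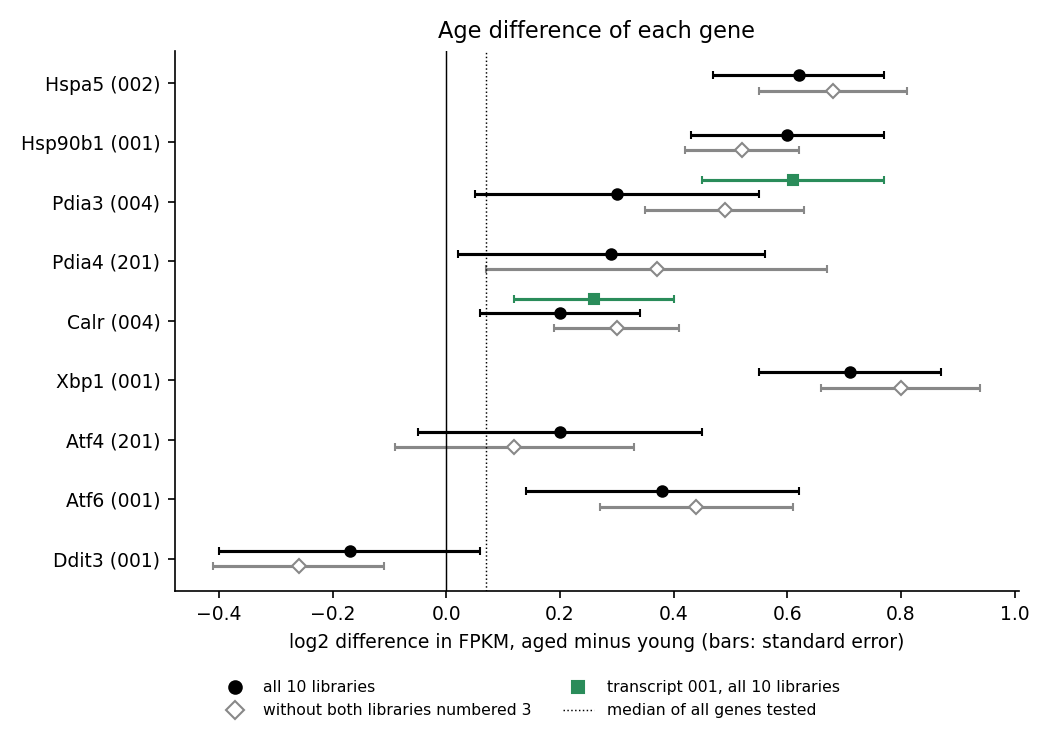
Difference of the mean log2 FPKM, aged minus young, for the 9 genes tested, with the transcript number in parentheses and bars for the limma standard error. Filled circles use all 10 libraries, open diamonds leave out both libraries numbered 3, squares give Pdia3-001 and Calr-001, and the dotted line is the median of all genes, 0.07. Xbp1, Hspa5 and Hsp90b1 lie at 0.60 to 0.71, and Ddit3 is the single gene below 0.

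The remaining transcripts of the same genes showed where library 3 enters. Of the 31 transcripts above 0, all of which were fitted, 21 had a higher mean in aged muscle and 6 were completely separated with aged higher, beside 55.1% and 1.25% of all 38059 transcripts. With both libraries numbered 3 left out, 19 of the 31 were completely separated with aged higher and 0 with aged lower, beside 8.13% and 0.859% of all transcripts. Transcripts of the same gene share reads and are not independent. For 25 transcripts the end could be placed on the gene by matching the length to the GENCODE annotation. Among the 8 that end within 500 exonic bases of the 3′ end of the gene, aged library 3 differed from the mean of the other aged libraries by -0.34 to 0.90, with a median of 0.49. Among the 17 that end farther upstream it was lower in 17 of 17, by over 1 in 14 of them, with a median of -2.51 and a lowest value of -4.82.

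The transcript with that lowest value was Hspa5-005, of 477 bases, which read 5.78, 5.97, 6.58 and 5.79 in aged libraries 1, 2, 4 and 5 but 1.21 in aged library 3, on the log2 FPKM scale. Young library 3 deviated the same way but less, by a median of -0.38 for the 17 upstream transcripts and 0.23 for the other 8. Complete separation with aged higher was seen for 5 of the 8 transcripts near the 3′ end and 0 of the 17 upstream, and without both libraries numbered 3 for 5 of 8 and 11 of 17. The distance of 500 bases was set after these values were seen. Averaged as FPKM over all transcripts of the gene, Hspa5 differed by 0.42 with an unadjusted limma p of 0.223 and Xbp1 by 0.54 with 0.108, so that both overlapped between the ages, and Hsp90b1 was the single gene past the unadjusted threshold. What sets library 3 apart was not tested.

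**Figure D3:**
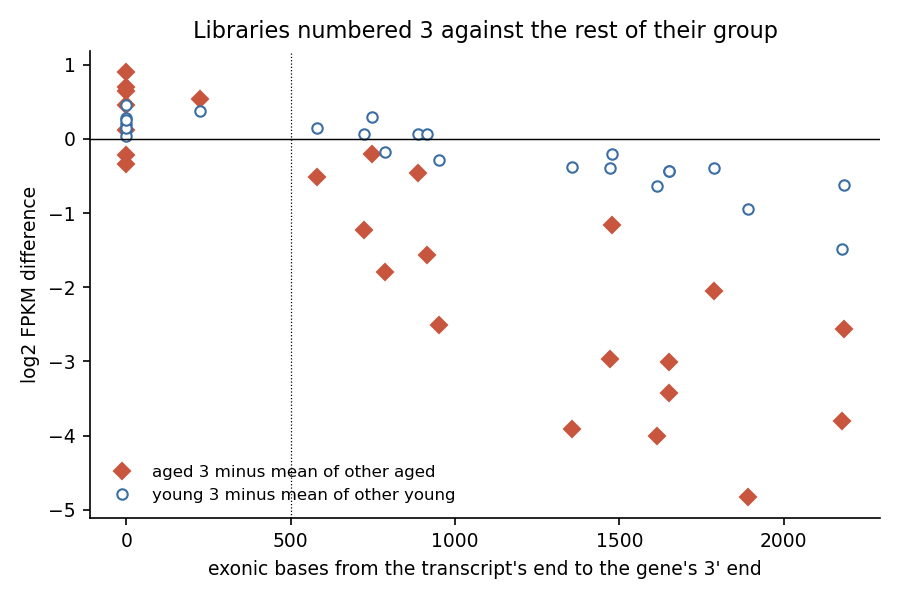
Deviation of the libraries numbered 3 from the mean of the other 4 libraries of their age, in log2 FPKM, for 25 transcripts of 6 genes, against the exonic bases between the end of the transcript and the 3′ end of its gene. Diamonds are aged library 3, open circles young library 3, and the dotted line marks 500 bases. Aged library 3 ranges from -0.34 to 0.90 left of the line and from -4.82 to -0.21 right of it.

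Around the 10 genes, 8 lists of the pathway held 114 further genes, of which 91 were tested. Of these, 69 (75.8%) had a higher mean in aged muscle, beside 61.4% of all genes. An unadjusted limma p under 0.05 was met by 10, all higher, which is 11% of the 91 beside the 6.05% of all genes given above. None had a limma adjusted p under 0.05. The median difference was 0.21, beside 0.07 over all genes, and 3 genes (Chac1, Sec61a1 and Derl1) were completely separated, or 3.3% beside 2.08% of all genes. Without both libraries numbered 3, 33 of the 91 (36.3%) had an unadjusted limma p under 0.05 in the higher direction beside 13.5% of all genes, 0 in the lower direction, and 23 (25.3%) were completely separated beside 9.92%. The number of 10 depended on single libraries, and was 4, 6, 5 and 6 without young 1, young 4, young 5 and aged 2, and 18 and 21 without young 3 and aged 3. With the replicate number as a block it was 19, where all genes gave 9.5%. Without young 1 the genes that no longer passed were Sec61g, Spcs2, Pdia6, Manf, Hyou1 and Vimp, some of which also did not pass without other single libraries, while Chac1, Sec61a1, Sec62 and Derl1 passed whichever library was left out.

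Among 16 further ER chaperones and cofactors, 15 had a higher mean in aged muscle, with a median of 0.30. Manf, a secreted ER stress factor, was higher by 0.89 (SE 0.36), with library 3 the highest in both ages, and by 0.56 without aged 3. Hyou1, the exchange factor of BiP, was higher by 0.38 (SE 0.15), and Sdf2l1 and Uggt1 had differences of 0.50 and 0.58 with limma p of 0.0885 and 0.1. Of the 9 disulfide enzymes tested, Pdia6 was higher by 0.40 (SE 0.16), whereas P4hb (0.58) and Erp44 (0.33) did not meet the unadjusted threshold, and without aged 3 their differences were 0.36 and 0.05. P4hb differed by 0.75 and passed without young 3, and by 0.53 with complete separation and an unadjusted limma p of 0.00476 without both libraries numbered 3. With the replicate block, limma's unadjusted p was 0.0397 for Sdf2l1, 0.0364 for Uggt1 and 0.00419 for P4hb. The chaperone list had 10 of 16 genes past the unadjusted threshold without both libraries numbered 3, all higher, beside 13.5% of all genes, and a median of 0.38. Under the same omission the cytosolic heat shock list, which is not of the ER, had 7 of 13 and a median of 0.45.

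The translocation machinery, which carries nascent chains into the ER, had 4 of 16 genes (25%) past the unadjusted limma p, beside 6.05% of all genes, with a median of 0.17 beside 0.07. After leaving out both libraries numbered 3, 8 of the 16 passed as higher and 6 were completely separated, beside 13.5% and 9.92% of all genes. Sec61a1, the pore subunit, differed by 0.50 (SE 0.16) with an exact two-sided permutation p of 0.00794. Sec62, Sec61g and the signal peptidase subunit Spcs2 were higher by 0.63, 0.43 and 0.37, and Sec61b (0.46) and Sec11c (0.35) did not pass, although Sec61b had an unadjusted limma p of 0.0224 with the replicate block. In ER-associated degradation, which returns misfolded proteins to the cytosol, 2 of 14 genes (14.3%) passed beside 6.05% of all genes, and 4 of 14 beside 13.5% when both libraries numbered 3 were left out. These were Derl1, a component of the retrotranslocation channel (0.39, SE 0.14), and its partner Vimp (0.35, SE 0.15), and the list had a median of 0.24. Edem2 (0.39) did not pass, and its unadjusted limma p was 0.0198 with the replicate block.

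None of the 7 tested sensors and processing genes and none of the 6 eIF2 control genes had an unadjusted limma p under 0.05. That threshold was met by 6.05% of all genes in the higher and 0.876% in the lower direction. The list medians were 0.21 and 0.20. After leaving out both libraries numbered 3, 3 of the 7 (Creb3, D10Wsu52e and Atf6b) and 1 of the 6 (Nck1) passed as higher, beside 13.5% of all genes. Creb3 and Creb3l2, related to ATF6, had differences of 0.24 and 0.28, and the eIF2 phosphatase subunits Ppp1r15a and Ppp1r15b had differences of 0.46 and 0.36. Ppp1r15a was at 5.81 in aged library 5 and at 3.68 to 4.14 in the other aged libraries, and its difference was 0.08 without that library. Ppp1r15b had an unadjusted limma p of 0.0471 with the replicate block. The sensors of the other arms were close to the floor. Ern1 was at 0.00 to 0.41 in young and 0.00 to 1.05 in aged libraries, and Eif2ak3 at 0.00 to 0.02 and 0.00 to 0.92, and neither reached the level for testing.

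Downstream of ATF4 and CHOP, 1 of 18 tested genes passed, or 5.56%, which is near the 6.05% of all genes, and the median was 0.09 beside 0.07. Without both libraries numbered 3, 4 of the 18 passed as higher, beside 13.5% of all genes. Under that omission 3 were completely separated, beside 9.92%, and the median was 0.18 beside 0.14. The gene that passed with all libraries was Chac1, which encodes a glutathione-degrading enzyme. Its log2 FPKM was 5.22, 5.39, 4.88, 3.39 and 4.55 in young libraries 1 to 5 and 6.15, 6.72, 6.35, 6.46 and 6.24 in aged libraries 1 to 5. The ages did not overlap, and young library 4 was the lowest of the 10. The mean went from 4.69 ± 0.79 to 6.38 ± 0.22 (SD, n = 5 per age), and the difference of 1.70 (SE 0.34) had an exact two-sided permutation p of 0.00794 and a limma p of 0.000521 before and 0.404 after adjustment. Atf3 (0.85, SE 0.40) and Cebpb (0.72, SE 0.45) did not pass. Without both libraries numbered 3, Atf3 differed by 1.26 with complete separation and an unadjusted limma p of 0.000298, and Cebpb by 0.78 with 0.0199. With the replicate block the unadjusted limma p of Cebpb was 0.0115. Fgf21, Gdf15, Psat1, Slc7a11 and Slc7a1 were listed at 0 in all libraries, as Trib3 was.

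The ATF4-type element TGATGNAA was searched on both strands. It was in 1 of the 9 windows of the chosen genes, that of Trib3 and not that of Ddit3, and in 4.51% of all genes. Chac1, picked after its values were seen, also had it, and the other ATF4 and CHOP targets are not given. In Trib3 and Chac1 it was on the strand opposite to the gene. These stretches are shown because Trib3, listed at 0, and Chac1, described above, both carry the element, with the element in capitals. They are printed 5′ to 3′ on the strand of the gene, so the capitals are the reverse complement of the element. In Chac1, a gene of the plus strand, it lies at chr2:119351049-119351056, beginning 193 bases before the start, and in Trib3, a gene of the minus strand, at chr2:152344039-152344046, just after the start.
Chac1: tgccgTTGCATCActcctg
Trib3: caggtTTACATCAgccggg

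Of the 5 tested genes of ER stress-linked cell death, 0 passed, beside 6.05% of all genes in the higher and 0.876% in the lower direction. A higher mean in aged muscle was found for 1 of the 5, beside 61.4% of all genes, and the median was -0.27. Bax differed by 0.38 and Bak1 by -0.36, and aged library 3 was the lowest of the 10 for Bak1 (1.98), Casp12 (0.53) and Mcl1 (3.70). Without both libraries numbered 3 the median of the list was 0.00, and Bax differed by 0.46 with complete separation and an unadjusted limma p of 0.0113.

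Lists outside the ER also held genes past the unadjusted threshold. Of 13 cytosolic heat shock genes, 2 (15.4%) had an unadjusted limma p under 0.05, beside 6.05% of all genes in the higher direction. These were Hsp90aa1 (1.16, SE 0.40) and Dnajb1 (0.60, SE 0.22), and the median was 0.35. Dnajb1 no longer passed without aged 4, and its difference was 0.41 without young 1. With both libraries numbered 3 left out, 7 of the 13 were past the threshold, all higher, beside 13.5% of all genes, and 5 were completely separated, beside 9.92%. Hsp90aa1 was at 6.14 in aged library 3 and at 4.05 to 4.85 in the other aged libraries, and without both libraries numbered 3 its difference was 0.63. Hspb1 (0.70) and Cryab (0.66) did not pass, and with the replicate block their unadjusted limma p was 0.0325 and 0.007. Of 10 early response genes, which are induced within minutes of many stimuli, 5 (50%) were past the unadjusted threshold and higher in aged muscle, beside 6.05% of all genes. These were Junb (2.35, SE 0.40), Btg2 (1.72, SE 0.29), Egr1 (3.53, SE 0.89), Fos (2.02, SE 0.58) and Ier2 (1.33, SE 0.58), while Jun (-0.29) and Zfp36 (0.34) were not. Ier2 differed by 0.98 and no longer passed, and Jun differed by 0.11, when both libraries numbered 3 were left out, and Zfp36 was at -0.09 without aged 3. The Egr1 and Fos differences include libraries listed at 0. Whether the early response genes and the ER genes moved together was not tested.

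**Figure D4:**
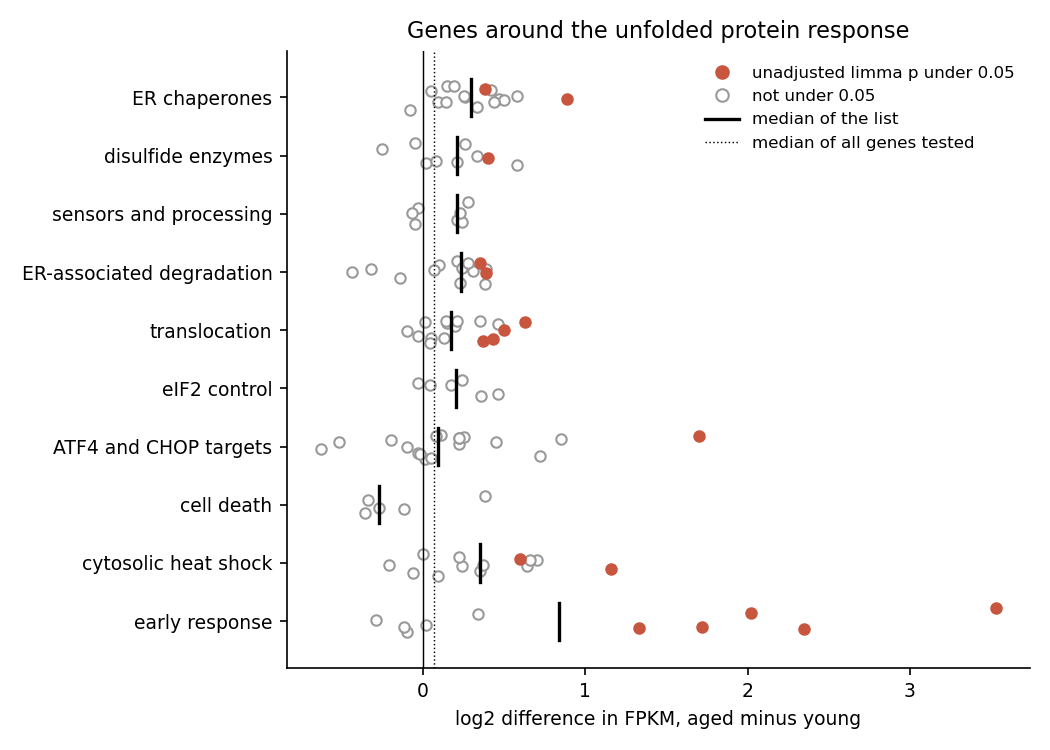
Difference of the mean log2 FPKM, aged minus young, for each tested gene of the 8 lists around the unfolded protein response and of the cytosolic heat shock and early response lists. Filled circles have an unadjusted limma p under 0.05, black bars are list medians and the dotted line is the median of all genes, 0.07. The medians are 0.30 for ER chaperones, 0.09 for ATF4 and CHOP targets and 0.84 for the early response genes.

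Markers of some other cell types were higher in the same aged libraries. Of 11 macrophage markers 7 were tested, 7 of the 7 had a higher mean in aged muscle, beside 61.4% of all genes, and 4 had an unadjusted limma p under 0.05, beside 6.05%. None of the 7 was completely separated by age, beside 2.08% of all genes. The list had a summed FPKM of 19.9 to 51 in young and 35.9 to 168 in aged libraries. Among 9 markers of B cells and plasma cells, which secrete immunoglobulin and need XBP1, 3 were tested. Igkc was at 0.00 to 1.29 in young and 3.15 to 6.78 in aged libraries, and the summed FPKM of the list was 62.3 to 107 and 54.3 to 293. Mzb1, an ER chaperone of plasma cells, was listed at 0 in all young libraries and at 0.48 and 1.20 in aged libraries 3 and 4. Derl3, abundant in secretory cells, was at 0 in all libraries. The part of these cells in the higher Hspa5, Hsp90b1 and Xbp1 levels was not tested. Of 9 fibroblast genes, Col3a1 alone passed, with a lower mean in aged muscle (3.59 ± 0.34 against 2.56 ± 0.83, SD, n = 5 per age), and 0 of 7 endothelial, 0 of 6 adipocyte and 0 of 4 red cell genes passed the unadjusted threshold. As for macrophages, all tested adipocyte (6), red cell (4) and Schwann cell (5) genes had a higher mean in aged muscle. Only 4 of 9 fibroblast and 4 of 7 endothelial genes did. The Schwann cell list had a median of 0.77. Of its 5 genes 1 passed as higher, and 0 without both libraries numbered 3. Of the regeneration genes, Myh3 (0.73) was at the threshold, with an unadjusted limma p of 0.0489 and of 0.0585 with the replicate block, and the satellite cell markers Pax7 and Myf5 were listed at 0 in all libraries. With that block C1qa, Cfd, Fabp4 and Myod1 also passed as higher and Col1a1 as lower.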

How the data were processed

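The RNA-Seq of 10 gastrocnemius muscles was analysed, with 5 libraries per age grouped by the age in their labels, and every column matched a library. According to the methods, the authors prepared poly-A libraries with a TruSeq RNA kit, mapped paired-end reads to mm10 (GRCm38) with TopHat2 and Bowtie2, computed FPKM and took log2. The deposited log2 values of FPKM are listed for each library and transcript, replicates were not pooled, and an FPKM of 1 or less appears as 0. The program that counted the reads and the treatment of reads with several positions are not given in the sources used here. That floor understates differences of low transcripts.

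limma 3.58.1 (R 4.3.3) was fitted to the log2 values of the 38059 transcripts whose mean FPKM reached 1, values at 0 counting as 0, with Benjamini-Hochberg adjustment over all of them. For single genes, two-sided exact permutation tests compared the ages. Background shares were taken over 10161 genes, each at its transcript of highest mean. Scripts were tested on simulated data. Read numbers were recovered from the steps of the values (within 0.00509 of a whole read for the 31 transcripts) and describe precision only. Libraries that share a number deviated together from the means of their ages. The correlation was 0.131 for number 1, 0.332 for 2, 0.695 for 3, 0.390 for 4 and 0.208 for 5, whereas other combinations averaged -0.038, so the numbers were treated as pairs in a blocked alternative. The mice are different, and what a number shares is not given in the sources used here.

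The genes and lists were chosen with earlier results of these data known. Besides the 10 genes, the text could name genes of the lists with an unadjusted limma p under 0.05, up to 25, and up to 2 more per list with the largest difference among those above 0 in all libraries. Others named (genes at or near 0, markers, genes with a motif, Casp12, Mcl1, D10Wsu52e, Atf6b and Nck1) were chosen after their values were seen. Some genes of the lists are counted but not reported singly here. Gene positions and promoter windows are from RefSeq (GRCm38.p6), and transcript ends and exon overlaps from GENCODE M21. Alternatives were the block, other filters, pseudocounts and scalings, other transcript choices and leaving out libraries. Python 3.11.15 with pandas 2.3.3 and scipy 1.17.1 was used.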

Additional observations from a re-analysis of the deposited data

Results flagged for a closer look

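In groups of 5 libraries, 11 values among 46 named genes had a gap to the nearest other library that made up most of the range of their group. Chance gives such a value in about 1 in 20 groups. Libraries numbered 3 held 7 of the 11. Among the chosen genes it was Hsp90b1 in aged library 3, at a log2 FPKM of 5.80 beside 5.11 to 5.25 in the rest. Aged library 3 was also the highest of its group for Manf (6.03 beside 4.16 to 4.50), P4hb (7.79 beside 6.56 to 6.83) and Cebpb (5.93 beside 4.39 to 4.62). Young library 3 was the highest for Manf (4.65 beside 3.52 to 3.76) and Erp44 (4.08 beside 2.94 to 3.20) and the lowest for Uggt1 (1.38 beside 1.95 to 2.08). The other 4 were Egr1 in young library 1 (1.34 beside 0.00 to 0.21), Jun in young library 2 (5.39 beside 4.70 to 4.88), Derl1 in young library 5 (3.97 beside 4.14 to 4.18) and Ppp1r15a in aged library 5 (5.81 beside 3.68 to 4.14). What set these values apart was not tested.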

How the results depend on the processing

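None of the 9 tested genes passed limma's adjusted p and none changed sign under the alternatives that could be run, 23 for 7 of them and 22 for Pdia4 and Atf6, which fell below a mean FPKM of 5. Hspa5 ranged from 0.42 to 0.68, Hsp90b1 from 0.47 to 0.65, Xbp1 from 0.54 to 0.80 and Ddit3 from -0.35 to -0.07. The number of these genes past an unadjusted limma p of 0.05 in the higher direction, 3 with all libraries, was 1 with the mean over all transcripts of a gene, 6 without both libraries numbered 3 and 5 without them and with a replicate block. It was 3 to 5 when single libraries were left out, with 5 without aged 3. With libraries numbered 3 out and the block, 1 gene (Ddit3) was lower, beside 0 with all libraries. Complete separation, 3 with all libraries, was 1, 5 and 5 under the same 3 alternatives. An exact permutation p under 0.05 was met by 3 genes, by 1 with the mean over transcripts, by 5 without both libraries numbered 3 and by 3 to 6 when single libraries were left out, with 6 without aged 3. In the paired form it was met by 0, since a test on the signs of 5 pairs cannot go below 0.0625. The 10 pathway genes past the unadjusted p became 19 with the replicate block, 6 after scaling by the median of ratios, 33 without both libraries numbered 3, 31 without them and with the block, and 4 to 21 when single libraries were left out. Among the 9 tested genes with all libraries, the replicate block changed the unadjusted call of Atf6 and no other. With libraries numbered 3 out, it moved the unadjusted limma p of Calr from 0.0229 to 0.0514 and that of Ddit3 from 0.116 to 0.0495. Among the 36 other genes named by the rule, it brought 9 past the unadjusted p and removed 0, and leaving out both libraries numbered 3 brought 11 past it and removed 1. Leaving out both libraries numbered 3 and taking the longest transcripts were chosen after seeing the data. The causes were not tested. Levels below an FPKM of 1 were not detectable.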
